A study of Mus musculus with 20 samples.

Results

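Axon guidance ligands and receptors are the secreted and membrane proteins by which growing axons are attracted or repelled. The 48 genes described here are the Eph receptors, ephrins, Slit and Robo proteins, netrin and its receptors, and the neuropilins, plexins and semaphorins named for the study. They were chosen by name and not by a cut on measured values, but with earlier results of these data known. All 48 were found, by gene identifier, among the 27179 genes of the deposited table. The study sequenced RNA of C57BL/6 striatum and hippocampus, to compare mice labelled wild type with mice labelled as full knockouts of Helios (Helios -/-). Helios is a transcription factor of the Ikaros family and the product of Ikzf2. There were 5 libraries for each of the 4 groups, wild type striatum, Helios -/- striatum, wild type hippocampus and Helios -/- hippocampus. The label Helios -/- gives no allele or driver, no further agent is named for any group, and no age or sex is given in the sources used here. Nothing in the labels says that libraries of a group came from separate animals, so p-values speak only to the spread among these libraries, which may be technical.

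Netrin-1, made by Ntn1, attracts axons that carry its receptor Dcc and repels those in which an Unc5 protein joins it. Slit proteins are secreted repellents read by Robo receptors. Secreted semaphorins bind neuropilins, which signal through plexins, while membrane semaphorins bind plexins directly. Eph receptors are tyrosine kinases that meet membrane-bound ephrins on a neighbouring cell, the A ephrins held by a lipid anchor and the B ephrins by a transmembrane segment. In the developing forebrain these families steer corticofugal, thalamic, nigrostriatal and hippocampal axons and the migration of interneurons.

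Levels are RPKM, reads divided by gene length and by library size, and can be compared between genes because they are per length. The decimal marks of all values of 1 or more were missing from the table as used here and were put back as described under the processing. The libraries held 14310069 to 34447093 recovered reads. Ikzf2 itself was at 3.66, 2.81, 2.36, 2.09 and 2.31 RPKM in striatum labelled wild type and at 1.11, 0.842, 1.09, 0.849 and 0.760 RPKM in striatum labelled Helios -/-, with no overlap. In hippocampus it was at 1.32, 1.58, 1.33, 1.61 and 0.782 RPKM under the wild type label (replicates 1, 2, 3, 4 and 6) and 1.43, 0.785, 0.353, 0.617 and 0.550 RPKM under the Helios -/- label (replicates 5, 7, 8, 9 and 10). There the library labelled wild type 6 was below the 4 others of its label and the library labelled Helios -/- 5 above the 4 others of its label, so that Ikzf2 went against both labels. These are the libraries coded 7_1 and 7_6, whose codes carry the opposite genotype label in striatum. Every hippocampal genotype comparison below is by label, with exchanged labels as an alternative. The library labelled hippocampus Helios -/- 10 carries the tissue tag striatum, but its title, file name and tissue marker sums are those of hippocampus.

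Tissue markers went with the tissue labels. Summed over 16 genes of striatal projection neurons, the level was 645.9 to 1100.0 RPKM in striatal libraries and 70.7 to 120.0 in hippocampal ones. Summed over 14 genes of pallial and hippocampal neurons, it was 128 to 529 RPKM in striatal libraries and 748 to 1123 in hippocampal ones. Cajal-Retzius cell markers (6 genes) summed to 20.2 to 33.6 RPKM in striatum other than wild type 4, which had 112, and to 107 to 193 in hippocampus. Of the libraries that stood apart, striatum wild type 4 also had a meningeal fibroblast sum (8 genes) of 106 RPKM, against 5.01 to 27.1 in the other striatal libraries. In the same library the astrocyte and radial glia sum (7 genes) was 1867 RPKM, against 700 to 1220 in the other striatal libraries. Its oligodendrocyte lineage sum (6 genes) was 165 RPKM, against 66.8 to 94.3. In hippocampus Helios -/- 8 the meningeal fibroblast sum was 404 RPKM, against 90.7 to 131 in the other 9 hippocampal libraries, and its sum of 8 choroid plexus markers was 162. That choroid plexus sum was 385 RPKM in hippocampus Helios -/- 5 and 38.4 to 93.0 in the remaining 8. Both sums weigh abundant genes most. By mean over hippocampus labelled Helios -/-, the fibroblast markers were led by Ptgds at 121.8 RPKM, with Dcn next at 17.25. The choroid plexus markers were led there by Ttr at 138.4 RPKM, with Otx2 next at 3.03. The library hippocampus Helios -/- 8 was also the lowest of its tissue for 42.9% of genes and for 33 of the 48 members. In bulk tissue, fewer cells of a type and less RNA per cell cannot be told apart.

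Most of the 48 genes were well expressed in both tissues. In striatum the highest mean levels were those of Robo2 with 68.1 ± 7.43 RPKM (SD, n = 10), Epha4 with 64.1 ± 10.6, Efnb3 with 63.3 ± 14.1 and Robo1 with 57.6 ± 8.35. The ranges of these 4 genes over libraries overlapped, so their order is not beyond their spread. In hippocampus the order was led by Nrp1 with 144 ± 24.2 RPKM, Epha4 with 89.9 ± 26.6, Efnb3 with 77.9 ± 5.72 and Sema3c with 73.7 ± 17.2, and the ranges of neighbours in that order overlapped. The lowest levels were those of Robo3, the Robo protein best known for commissural axons in hindbrain and spinal cord. Robo3 was at 0.117, 0.229, 0.662, 0.187 and 0.520 RPKM in striatum labelled wild type, 0.366, 0.449, 0.404, 0.467 and 0.230 in striatum labelled Helios -/-, 0.0284, 0.256, 0.0633, 0.251 and 0.0945 in hippocampus labelled wild type and 0.209, 0.126, 0.382, 0.139 and 0.0526 in hippocampus labelled Helios -/-. It was the only member under the filter on low values (0.5 RPKM in at least 5 libraries of the fit), and it was not tested.

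The members differed widely between striatum and hippocampus. Of 46 members tested, limma called 35 at an adjusted p below 0.05 over all 14520 genes, 16 higher in striatum and 19 higher in hippocampus. Over all genes tested, 49.1% were called, 23.1% higher in striatum and 26% higher in hippocampus. A difference of more than 1 on the log2 scale was seen for 15 of the 46 members and for 5.3% of all genes, and one of more than 2 for 5 members and for 1.12% of genes. The median absolute difference was 0.68 over the members and 0.18 over all genes. The lowest library of the higher tissue lay above the highest library of the other for 11 members in the direction of striatum, against 8.47% of genes, and for 6 in the direction of hippocampus, against 6.62%. Without hippocampus Helios -/- 8 the count of members was 39, with Plxnb2, Sema6d, Unc5d and Plxna3 added, and that of all genes was 8727 against 7135. Without striatum wild type 4 the count of members was 34. The marker sums given above moved with tissue, and their part in these differences was not tested.

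**Figure D1:**
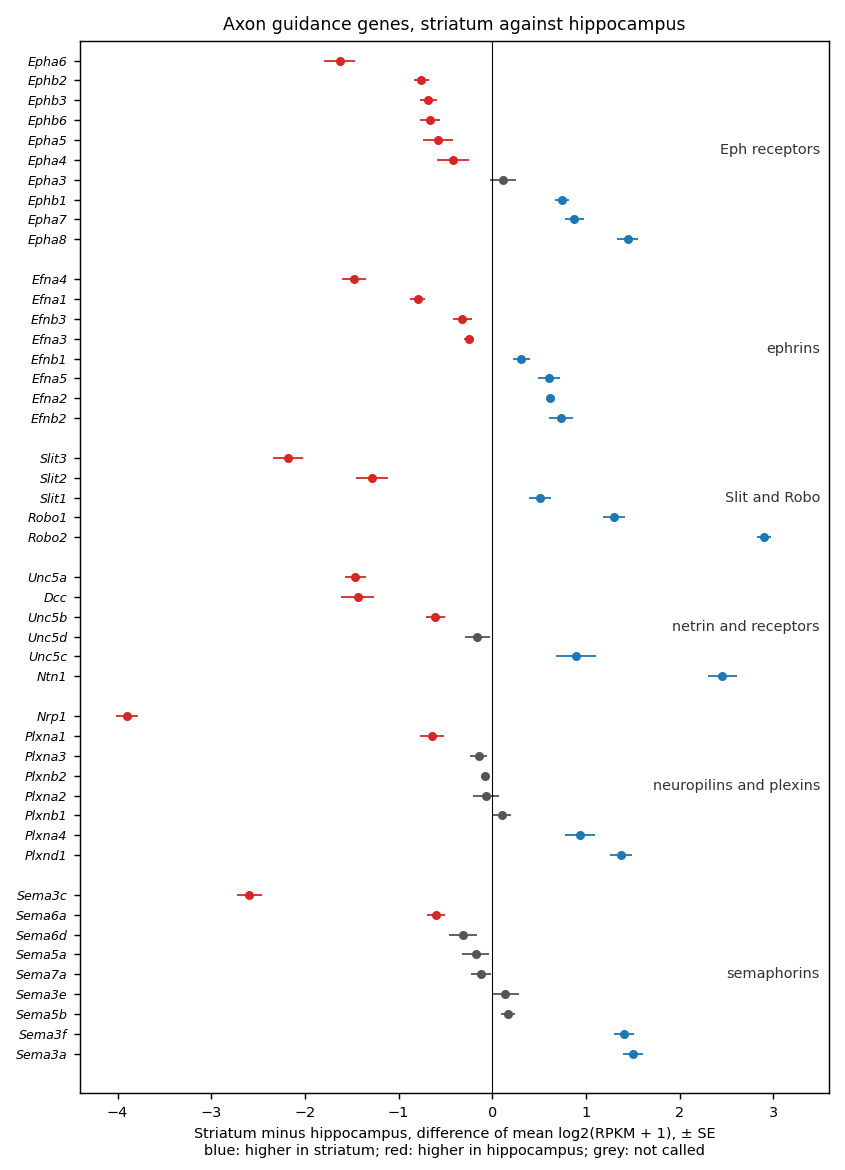
Difference in mean log2(RPKM + 1) between 10 striatal and 10 hippocampal libraries for the 46 members tested, by family, with the standard error as the bar. Points to the right (blue) were called higher in striatum and points to the left (red) higher in hippocampus, from 2.90 for Robo2 to -3.90 for Nrp1, and the 11 grey points were not called.

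Robo1 and Robo2 were higher in striatum, and of the Slit ligands Slit2 and Slit3 were higher in hippocampus. Robo2, a Slit receptor at chr16:73891976-75447443 (mm10), was the member with the largest difference toward striatum. Striatal levels of Robo2 were 76.7, 75.9, 64.4, 71.4 and 59.9 RPKM in wild type and 80.2, 66.5, 63.2, 63.6 and 59.3 RPKM in Helios -/- libraries, by label. The hippocampal libraries gave 8.13, 9.19, 7.88, 10.4 and 9.27 RPKM when labelled wild type and 8.08, 7.87, 5.47, 8.29 and 8.14 RPKM when labelled Helios -/-. The lowest striatal library was thus several times the highest hippocampal one. The mean was 8.23 times as high in striatum, with a log2 difference of 2.90 ± 0.08 (SE), adjusted p = 1.22e-16. Robo1, the other main Slit receptor of the forebrain, was at 40.7 to 70.9 RPKM in striatum and 11.3 to 29.3 in hippocampus, a log2 difference of 1.303 ± 0.12 (SE), adjusted p = 1.49e-08. The ligand Slit3, at chr11:35121456-35708507, went the other way. The striatal libraries had Slit3 at 0.900, 0.955, 1.24, 0.584 and 0.825 RPKM under the wild type label and at 1.14, 0.794, 0.813, 1.28 and 0.653 RPKM under the Helios -/- label. For hippocampus, the wild type label held 10.1, 8.44, 8.39, 5.79 and 9.18 RPKM and the Helios -/- label 9.76, 9.24, 2.60, 8.78 and 7.63 RPKM. Every hippocampal library exceeded every striatal one, and hippocampus Helios -/- 8 was the lowest in its tissue. The mean of Slit3 was 8.70 times as high in hippocampus, with a log2 difference of -2.18 ± 0.16 (SE), adjusted p = 8.44e-10. Slit2, at 1.35 to 3.97 RPKM in striatum and 2.48 to 10.3 in hippocampus, differed by -1.28 ± 0.17 (SE), adjusted p = 4.42e-06. Its lowest hippocampal value, in Helios -/- 8, fell inside the striatal range. Slit1 was the exception among the ligands, higher in striatum by 0.51 ± 0.12 (SE), adjusted p = 0.00116, at 6.44 to 13.6 against 3.79 to 8.46 RPKM.

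Netrin-1 and Dcc also lay on opposite sides. Ntn1, at chr11:68209364-68386826, was a striatal gene in these libraries. In striatum, Ntn1 gave 12.8, 23.4, 25.3, 22.3 and 16.6 RPKM in the libraries labelled wild type and 35.0, 13.5, 20.9, 23.3 and 22.1 RPKM in those labelled Helios -/-. In hippocampus the values were 3.80, 3.24, 3.21, 3.65 and 3.49 RPKM under the wild type label and 2.62, 3.27, 1.12, 3.32 and 2.70 RPKM under the Helios -/- label. The groups did not overlap between tissues, and within striatum the values spread from 12.8 to 35.0 RPKM. The mean was 7.07 times as high in striatum, with a log2 difference of 2.46 ± 0.15 (SE), adjusted p = 9.68e-11. Dcc, the receptor through which netrin-1 attracts, was at 9.07 to 15.3 RPKM in striatum and 11.5 to 49.7 in hippocampus. The Dcc difference was -1.44 ± 0.17 (SE), adjusted p = 1.00e-06, and its lowest hippocampal value, 11.5 RPKM, was again that of Helios -/- 8. Unc5a, a receptor of the repulsive response at chr13:54945151-55006018, was likewise a hippocampal gene. Striatal levels of Unc5a were 6.35, 5.95, 8.87, 5.33 and 8.19 RPKM in wild type and 4.78, 9.50, 8.12, 8.78 and 4.90 RPKM in Helios -/- libraries, by label. The hippocampal libraries gave 20.1, 21.3, 20.1, 18.6 and 19.3 RPKM when labelled wild type and 24.9, 20.4, 20.4, 22.1 and 20.5 RPKM when labelled Helios -/-. Its tissues did not overlap. The mean was 2.94 times as high in hippocampus, with a log2 difference of -1.46 ± 0.11 (SE), adjusted p = 1.15e-09. The other Unc5 receptors split. Unc5b was higher in hippocampus by a log2 difference of -0.61 ± 0.10 (SE), adjusted p = 5.65e-05. Unc5c was higher in striatum by 0.89 ± 0.21 (SE), adjusted p = 0.00166. Unc5d was not called, with a difference of -0.16 ± 0.13 (SE).

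Nrp1 and Nrp2, the neuropilins, had the largest differences toward hippocampus among the members measured. Nrp1, the receptor that binds Sema3a, lies at chr8:128358591-128505476. The striatal libraries had Nrp1 at 8.66, 9.97, 8.13, 15.7 and 9.57 RPKM under the wild type label and at 5.88, 8.60, 7.31, 6.52 and 7.95 RPKM under the Helios -/- label. For hippocampus, the wild type label held 169.6, 149, 162, 141 and 155 RPKM and the Helios -/- label 152, 151, 82.3, 129.7 and 149.8 RPKM. The lowest hippocampal library stood several times above the highest striatal one. The mean was 16.3 times as high in hippocampus, with a log2 difference of -3.90 ± 0.12 (SE), adjusted p = 1.07e-15, the largest among the members in either direction. Nrp2, the receptor that binds Sema3f, was at 2.21, 4.04, 6.72 and 4.41 RPKM in striatum wild type 1, 2, 4 and 5, and at 3.53, 5.00, 5.36, 14.4 and 1.60 RPKM in striatum labelled Helios -/-. In hippocampus Nrp2 was at 92.2, 68.6, 76.1, 55.4 and 82.0 RPKM under the wild type label and 85.5, 78.3, 27.3, 76.1 and 70.5 under the Helios -/- label. In striatum wild type 3 the decimal mark of Nrp2 could stand at 1.18 or at 11.8 RPKM, and the gene was left out of the reported fits with striatum for that reason. Kept in with the lower value, its log2 difference between tissues was -3.78 ± 0.28 (SE), adjusted p = 1.43e-09, and with the higher one -3.53 ± 0.29 (SE), adjusted p = 4.69e-09, an alternative chosen after the data were seen.

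The secreted semaphorins split by gene. Sema3a, the ligand read through Nrp1, lies at chr5:13124822-13603485 and was higher in striatum. In striatum, Sema3a gave 8.28, 9.11, 12.1, 6.20 and 8.93 RPKM in the libraries labelled wild type and 15.8, 11.2, 10.8, 14.7 and 8.88 RPKM in those labelled Helios -/-. In hippocampus the values were 2.50, 3.19, 2.86, 3.66 and 2.81 RPKM under the wild type label and 3.09, 2.80, 2.63, 3.499 and 2.85 RPKM under the Helios -/- label. No striatal library fell to the hippocampal range. The mean of Sema3a was 3.55 times as high in striatum, with a log2 difference of 1.504 ± 0.10 (SE), adjusted p = 3.37e-10. Sema3f, the ligand read through Nrp2, lies at chr9:107681499-107710475 and did the same. Striatal levels of Sema3f were 20.1, 17.8, 16.4, 11.8 and 16.4 RPKM in wild type and 17.6, 14.97, 15.2, 13.3 and 14.1 RPKM in Helios -/- libraries, by label. The hippocampal libraries gave 3.69, 6.20, 5.29, 5.94 and 4.38 RPKM when labelled wild type and 5.91, 4.54, 8.20, 4.72 and 4.59 RPKM when labelled Helios -/-. The highest hippocampal value, 8.20 RPKM in Helios -/- 8, stayed below the lowest striatal one. Its mean was 2.95 times as high in striatum, with a log2 difference of 1.41 ± 0.11 (SE), adjusted p = 1.56e-09. Sema3c, at chr5:17574816-17730268, went with the neuropilins instead. The striatal libraries had Sema3c at 11.4, 10.6, 13.9, 6.17 and 9.95 RPKM under the wild type label and at 11.2, 12, 11.03, 14.5 and 11.5 RPKM under the Helios -/- label. For hippocampus, the wild type label held 92.1, 71.2, 80.4, 75.7 and 94.4 RPKM and the Helios -/- label 63.1, 78.8, 36.7, 59.4 and 85.2 RPKM. The tissues did not overlap. The mean of Sema3c was 6.56 times as high in hippocampus, with a log2 difference of -2.59 ± 0.14 (SE), adjusted p = 6.01e-12. Sema3e, a ligand that binds Plxnd1 without a neuropilin, was not called, with a difference of 0.14 ± 0.14 (SE). Of the membrane semaphorins, Sema6a was higher in hippocampus by -0.60 ± 0.10 (SE), adjusted p = 3.45e-05. Sema5a, Sema5b, Sema6d and Sema7a were not called.

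Among the plexins, Plxnd1, the receptor of Sema3e at chr6:115954811-115995339, was the striatal one. In striatum, Plxnd1 gave 47.2, 35.0, 26.8, 20.7 and 36.6 RPKM in the libraries labelled wild type and 36.5, 33.8, 36.3, 32.9 and 25.9 RPKM in those labelled Helios -/-. In hippocampus the values were 9.48, 15.1, 12.01, 13.2 and 12.04 RPKM under the wild type label and 13.9, 10.6, 11.2, 12 and 10.2 RPKM under the Helios -/- label. Its tissues did not overlap, and its spread was widest in striatum labelled wild type. The mean was 2.77 times as high in striatum, with a log2 difference of 1.38 ± 0.12 (SE), adjusted p = 7.72e-09. Plxna4, which signals for Sema3a with Nrp1 and for membrane semaphorins without it, was also higher in striatum, by 0.93 ± 0.16 (SE), adjusted p = 7.42e-05. Plxna1 was higher in hippocampus by -0.64 ± 0.12 (SE), adjusted p = 2.42e-04. Plxna2, Plxna3, Plxnb1 and Plxnb2 were not called, with differences from -0.15 to 0.10.

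**Figure D2:**
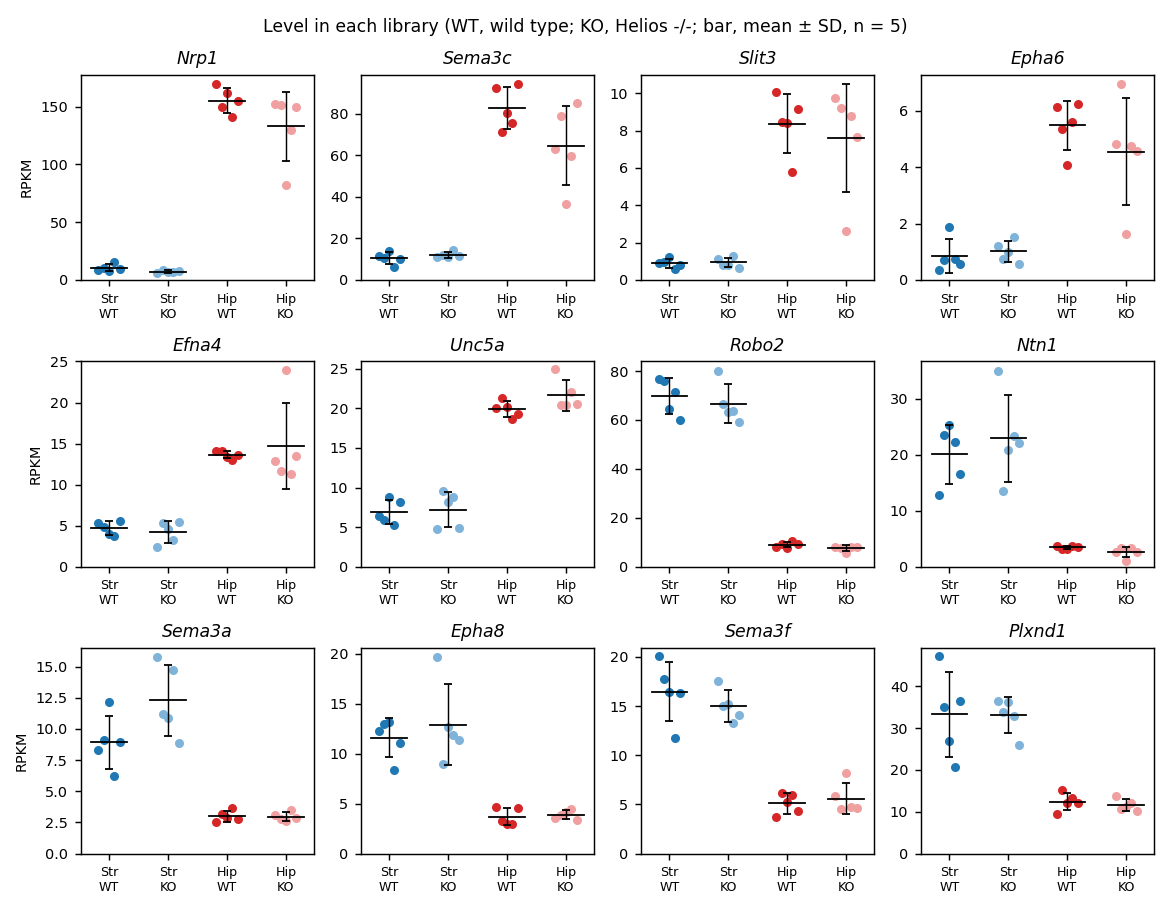
Level in RPKM of the 12 members with the largest called differences between tissues, in each of 20 libraries, with the mean and SD of each group of 5 as bars. Nrp1, Sema3c, Slit3, Epha6, Efna4 and Unc5a were high in hippocampus and Robo2, Ntn1, Sema3a, Epha8, Sema3f and Plxnd1 in striatum, under both genotype labels, and the lowest hippocampal points of Nrp1, Sema3c, Slit3 and Epha6 are those of Helios -/- 8.

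Eph receptors and ephrins were divided within each family. Of 10 Eph receptors, 3 were higher in striatum, 6 higher in hippocampus and 1, Epha3, was not called. Epha8, an EphA receptor at chr4:136929419-136956859, led those of striatum. Striatal levels of Epha8 were 12.3, 13.0, 13.2, 8.41 and 11.03 RPKM in wild type and 19.7, 8.96, 12.7, 11.8 and 11.4 RPKM in Helios -/- libraries, by label. The hippocampal libraries gave 4.63, 3.30, 3.00, 2.92 and 4.61 RPKM when labelled wild type and 3.61, 3.88, 4.17, 4.44 and 3.36 RPKM when labelled Helios -/-. Its tissues did not overlap. The mean was 3.23 times as high in striatum, with a log2 difference of 1.45 ± 0.11 (SE), adjusted p = 2.67e-09. Epha7 and Ephb1 were the other striatal receptors, with log2 differences of 0.88 ± 0.10 and 0.74 ± 0.07 (SE). Epha6, at chr16:59641433-60610911, was near the filter in striatum. The striatal libraries had Epha6 at 0.350, 0.702, 1.87, 0.741 and 0.576 RPKM under the wild type label and at 1.21, 0.746, 1.00, 1.54 and 0.561 RPKM under the Helios -/- label. For hippocampus, the wild type label held 6.15, 5.37, 4.07, 5.61 and 6.24 RPKM and the Helios -/- label 4.83, 6.95, 1.63, 4.76 and 4.58 RPKM. Apart from the lowest hippocampal library, Helios -/- 8, every hippocampal value exceeded the striatal range. The mean of Epha6 was 5.40 times as high in hippocampus, with a log2 difference of -1.63 ± 0.17 (SE), adjusted p = 1.04e-07. Epha4, Epha5, Ephb2, Ephb3 and Ephb6 were also higher in hippocampus, with differences between -0.76 and -0.42. Epha4, a receptor for ephrins of both classes, had an adjusted p of 0.0479, close to the threshold. It kept its call in 6 of the 20 fits that left out 1 library each.

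All 8 ephrins were called, 4 in each direction. Efna4, an A ephrin at chr3:89333393-89338028, differed most. In striatum, Efna4 gave 5.33, 4.82, 3.95, 3.74 and 5.62 RPKM in the libraries labelled wild type and 2.43, 5.34, 4.56, 3.22 and 5.45 RPKM in those labelled Helios -/-. In hippocampus the values were 14.1, 14.1, 13.4, 13.0 and 13.7 RPKM under the wild type label and 12.9, 11.7, 23.9, 11.3 and 13.5 RPKM under the Helios -/- label. The tissues did not overlap, and the highest value was that of hippocampus Helios -/- 8, which was low for most other members. The mean of Efna4 was 3.19 times as high in hippocampus, with a log2 difference of -1.48 ± 0.13 (SE), adjusted p = 1.12e-08. Efna1, Efna3 and Efnb3 were also higher in hippocampus, with differences of -0.80, -0.25 and -0.32. Efna2, Efna5, Efnb1 and Efnb2 were higher in striatum, with differences of 0.62, 0.61, 0.31 and 0.73. The tissues did not overlap for Efna2, at 17.3 to 21.1 RPKM over 10 striatal libraries and 11.1 to 15.04 over 10 hippocampal ones.

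Called members kept their direction between tissues under both genotype labels. In wild type 34 of 46 members were called between tissues, beside 33% of genes, and in Helios -/- 30 of 46, beside 39% of genes. All 35 members called over both genotypes had the same direction in each, 30 were called in each, and Efna3, Efnb1, Epha4 and Epha5 were called in wild type alone. Whether these 4 differ between genotypes is the interaction tested below.

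Neighbours on a chromosome did not always share a direction. Efna1, Efna3 and Efna4 lie within chr3:89271730-89338028 and were all higher in hippocampus. Robo1 and Robo2 lie within chr16:72027518-75447443 and were both higher in striatum. Sema3a, Sema3e and Sema3c follow each other within chr5:13124822-17730268, and their log2 differences were 1.504, 0.14 and -2.59. For 11 of the 48 members the annotated span contains or overlaps another annotated gene, such as Mir218-1 inside Slit2 and Mir218-2 inside Slit3. The libraries were stranded per the labels' protocols, but no source used here says whether counting used the strand, so reads of overlapping genes may not be separated.

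Promoters of 4 of these genes are shown. They belong to the receptor Nrp1, to the ligands Sema3c and Sema3a, whose tissue patterns were opposite to each other, and to the most striatal Eph receptor. They run from 250 bases before to 50 bases after the annotated start, 5′ to 3′ on the gene's strand (RefSeq, GRCm38.p6). Capitals mark GGGAA, the core bound by Ikaros family proteins, on either strand.
Nrp1, chr8:128358823-128359122, plus strand: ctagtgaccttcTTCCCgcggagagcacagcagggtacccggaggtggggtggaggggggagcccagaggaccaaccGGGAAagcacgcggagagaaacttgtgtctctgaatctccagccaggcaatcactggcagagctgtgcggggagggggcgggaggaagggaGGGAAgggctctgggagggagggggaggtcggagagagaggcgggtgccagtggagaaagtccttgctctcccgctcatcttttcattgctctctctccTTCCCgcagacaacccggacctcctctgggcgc
Sema3c, chr5:17574566-17574865, plus strand: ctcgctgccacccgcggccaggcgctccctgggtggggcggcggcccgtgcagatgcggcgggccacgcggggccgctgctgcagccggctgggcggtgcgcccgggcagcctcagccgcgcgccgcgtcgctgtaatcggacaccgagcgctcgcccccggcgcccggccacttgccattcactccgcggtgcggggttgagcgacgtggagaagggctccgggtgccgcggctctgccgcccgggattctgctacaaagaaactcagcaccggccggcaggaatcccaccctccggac
Sema3a, chr5:13396534-13396833, plus strand: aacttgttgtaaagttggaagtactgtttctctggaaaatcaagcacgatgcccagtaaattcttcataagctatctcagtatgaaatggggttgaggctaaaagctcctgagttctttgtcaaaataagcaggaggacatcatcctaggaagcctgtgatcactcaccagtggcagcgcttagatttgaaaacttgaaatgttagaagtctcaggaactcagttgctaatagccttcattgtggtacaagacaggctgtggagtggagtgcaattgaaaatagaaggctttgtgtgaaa
Epha8, chr4:136956767-136957066, minus strand: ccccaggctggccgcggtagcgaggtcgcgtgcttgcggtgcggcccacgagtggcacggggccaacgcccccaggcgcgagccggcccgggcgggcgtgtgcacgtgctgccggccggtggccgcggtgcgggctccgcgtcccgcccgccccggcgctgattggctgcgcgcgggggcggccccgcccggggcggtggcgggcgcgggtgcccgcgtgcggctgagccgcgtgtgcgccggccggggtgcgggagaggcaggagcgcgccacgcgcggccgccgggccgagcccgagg
The window of Nrp1 holds 4 matches, and those of Sema3c, Sema3a and Epha8 hold 0. The Nrp1 and Sema3a windows lie inside the annotated spans of these genes given above, since RefSeq places the starts used there. The Sema3a window differs in composition, with 41.3% G or C and 2 CG dinucleotides in 300 bases, against 84.3% and 56 for Epha8. Over the 46 promoters that RefSeq gives for 39 of the 48 members, the median was 66.5% G or C and 23 CG dinucleotides, against 52.7% and 7 over 32851 promoters of all genes. GGGAA on either strand was found in 24 of the 46 (52.2%) and in 62.7% of all promoters. TATAAA on either strand was found in 2 of the 46 (4.35%) and in 13.6% of all promoters. These are matches of letters and not sites of binding.

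Other genes of the pathway, 70 listed by name beside the members, were less spread than the members. Of 62 tested, 21 were called higher in striatum and 20 higher in hippocampus, beside 23.1% and 26% of all genes. Their median absolute log2 difference was 0.30, against 0.68 over the members and 0.18 over all genes. Ngef, an exchange factor that acts downstream of Epha4, differed most, at 32.2 to 59.6 RPKM in striatum and 2.65 to 4.30 in hippocampus, with a log2 difference of 3.34 ± 0.09 (SE), adjusted p = 1.25e-16. Epha10, an Eph receptor without kinase activity, and Sema4a, a membrane semaphorin, followed with 1.31 ± 0.09 and 0.93 ± 0.07 (SE). Toward hippocampus the leaders were Mical2, an actin-oxidising enzyme, with -1.91 ± 0.16, Flrt1, a membrane protein of a family that binds Unc5 receptors, with -1.49 ± 0.17, and Draxin, a secreted repellent that binds Dcc, with -1.41 ± 0.09.

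Within striatum, members varied between libraries beyond what genotype labels set apart. The pallial marker sum was highest in wild type 5 and Helios -/- 7, at 529 and 526 RPKM, and 128 to 302 in the other 8 libraries. Plxna4 was highest in the same libraries, at 44.6 and 41.7 RPKM, against 12.5 to 32.8 in the others. Unc5c was at 7.42 and 10.8 RPKM there, against 1.89 to 7.84 in the others, so that Helios -/- 8 came between them. Sema7a, a lipid-anchored semaphorin, was at 27.1 and 25.9 RPKM, against 15.1 to 25.1. Efnb3, the ephrin that acts as a midline barrier, was highest where the pallial sum was lowest, with 89.5 RPKM in wild type 3, whose sum was 128. Striatum wild type 4 had the high meningeal, Cajal-Retzius, astrocyte and radial glia, and oligodendrocyte lineage sums given above. There Efna1 was at 2.81 RPKM against 1.054 to 1.39 in the other 9, Nrp1 at 15.7 against 5.88 to 9.97 and Efnb1 at 43.3 against 18.9 to 30.1. These genes were picked out after their values were seen, and the part of the marker cell types was not tested.

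Between genotypes, no member was called in striatum. Of 46 members tested 0 had an adjusted p below 0.05, as did 0% of 13979 genes, and the smallest adjusted p of a member was 0.982. At an unadjusted limma p under 0.05 there were 3 members, against 4.1% of genes, and voom called 0 members as well. The 3 were Nrp1, Sema3a and Efnb1, with the levels of Nrp1 and Sema3a in every library given above. Efnb1 is the B ephrin on the X chromosome, at chrX:99136061-99149022. Efnb1 was at 30.1, 29.0, 24.8, 43.3 and 26.1 RPKM in striatum labelled wild type and 18.9, 22.3, 26.2, 23.5 and 27.4 in striatum labelled Helios -/-, and the groups overlapped. Its log2 difference, Helios -/- minus wild type, was -0.34 ± 0.14 (SE), adjusted p = 0.982, and -0.21 without wild type 4. Nrp1 differed by -0.44 ± 0.15 (SE), adjusted p = 0.982, and by -0.30 without that library, and Sema3a by 0.42 ± 0.17 (SE), adjusted p = 0.982, with 15.8 RPKM in Helios -/- 6 as its highest value and 6.20 in wild type 4 as its lowest. No member separated the genotype groups in striatum without overlap, against 0.808% of genes in either direction.

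In hippocampus no member was called either, of 47 tested and beside 0% of 14011 genes, with a smallest adjusted p of 0.708 among the members. At an unadjusted limma p under 0.05 there were 5 members, Ephb1, Plxnb2, Plxna4, Robo1 and Efna1, against 4.53% of genes, and voom called 0. All 5 were lower under the Helios -/- label. That count was 12 members, beside 9.27% of genes, without Helios -/- 8, and 1 member, beside 2.89% of genes, with the labels of codes 7_1 and 7_6 exchanged. Ephb1, a receptor of B ephrins at chr9:101922128-102354693, was at 26.9, 26.2, 26.1, 25.6 and 26.8 RPKM in hippocampus labelled wild type and at 23.9, 22.5, 20.6, 23.1 and 22.2 under the Helios -/- label, and the groups did not overlap. Its log2 difference was -0.22 ± 0.06 (SE), adjusted p = 0.708, and -0.19 without Helios -/- 8. Plxnb2, a plexin for membrane semaphorins, was at 41.6, 37.7, 39.8, 38.8 and 39.3 RPKM in hippocampus labelled wild type and 37.5, 35.4, 30.9, 36.3 and 34.4 under the Helios -/- label, likewise without overlap. Its log2 difference was -0.17 ± 0.07 (SE), adjusted p = 0.708. Those 2 of the 47 members stand beside 1.76% of genes that were lower without overlap. With the labels of codes 7_1 and 7_6 exchanged, the groups of both genes overlapped. Ephb1 then had 26.8 RPKM in a Helios -/- and 23.9 in a wild type library, and Plxnb2 39.3 and 37.5. Plxna4 was at 16.5, 17.3, 15.4, 18.3 and 17.8 RPKM and 15.6, 14.6, 8.55, 14.1 and 14.1 RPKM in the same groups, with a difference of -0.35 ± 0.14 (SE), adjusted p = 0.708, and -0.21 without Helios -/- 8.

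Taken as a list, 38 of 47 members were lower in hippocampus labelled Helios -/-, with a median of -0.16 on the log2 scale, beside -0.01 and 53.3% of genes lower over all genes. The library Helios -/- 8 stood apart. It was below the mean of the other 9 hippocampal libraries for 41 of 48 members, with a median of -0.55. For the 27 members longer than 5 kb the median was -0.84, and for the 21 shorter ones -0.06. Long genes in general were low in that library, with a median of -0.68 over all tested genes longer than 5 kb beside -0.05 over tested genes of any length. In the other 9 libraries the median over the longer members lay between -0.03 and 0.18. Without Helios -/- 8 the count was 30 of 47 and the median -0.06. With the labels of codes 7_1 and 7_6 exchanged the count was 42 and the median again -0.16. The members had a median length of 5802.5 bases, against 2789 over the genes tested. Its meningeal fibroblast sum was 404 RPKM, as given above, and the part of those cells and of gene length in these differences was not tested.

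**Figure D3:**
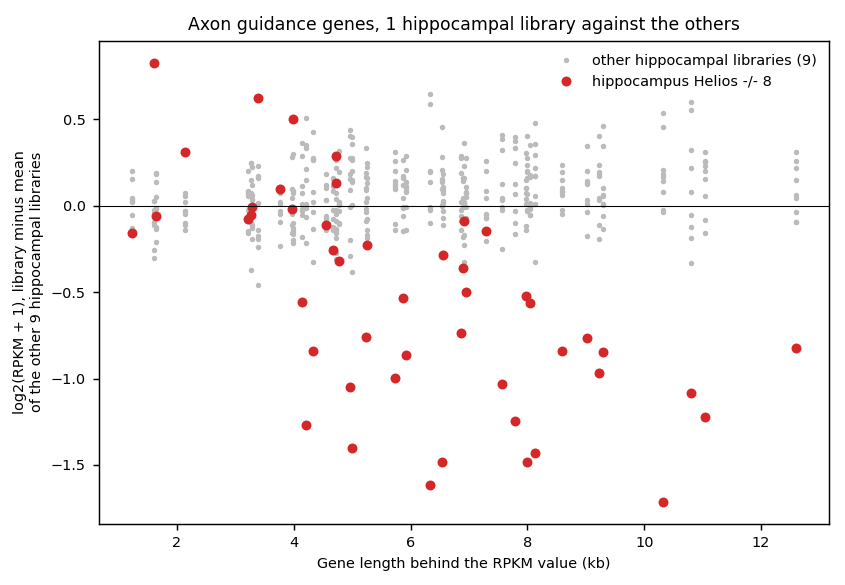
Each point is a member in 1 hippocampal library, by gene length in kb and by its log2(RPKM + 1) minus the mean of the other 9 hippocampal libraries. The library Helios -/- 8 (red) falls below the others for long genes, with a median of -0.84 over the 27 members longer than 5 kb and -0.06 over the 21 others.

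Epha4 lies on chromosome 1 like Ikzf2, 7.68 megabases from it, at chr1:77367182-77515107. In striatum it was at 73.7, 76.4, 62.2, 45.4 and 62.2 RPKM under the wild type label and 81.3, 58.4, 61.3, 55.1 and 65.2 under the Helios -/- label, and the groups overlapped. The difference was 0.02 ± 0.14 (SE), adjusted p = 0.997. In hippocampus it was at 128, 84.7, 96.4, 83.6 and 123 RPKM under the wild type label and 84.2, 96.1, 30.4, 79.9 and 92.9 under the Helios -/- label. Helios -/- 8 was far below the rest, at 30.4 RPKM, and wild type 1 and wild type 6 were the highest, at 128 and 123. Wild type 6 is the library coded 7_1, in which Ikzf2 went against the label. The limma difference was -0.50 ± 0.29 (SE), adjusted p = 0.708, and -0.20 without Helios -/- 8.

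**Figure D4:**
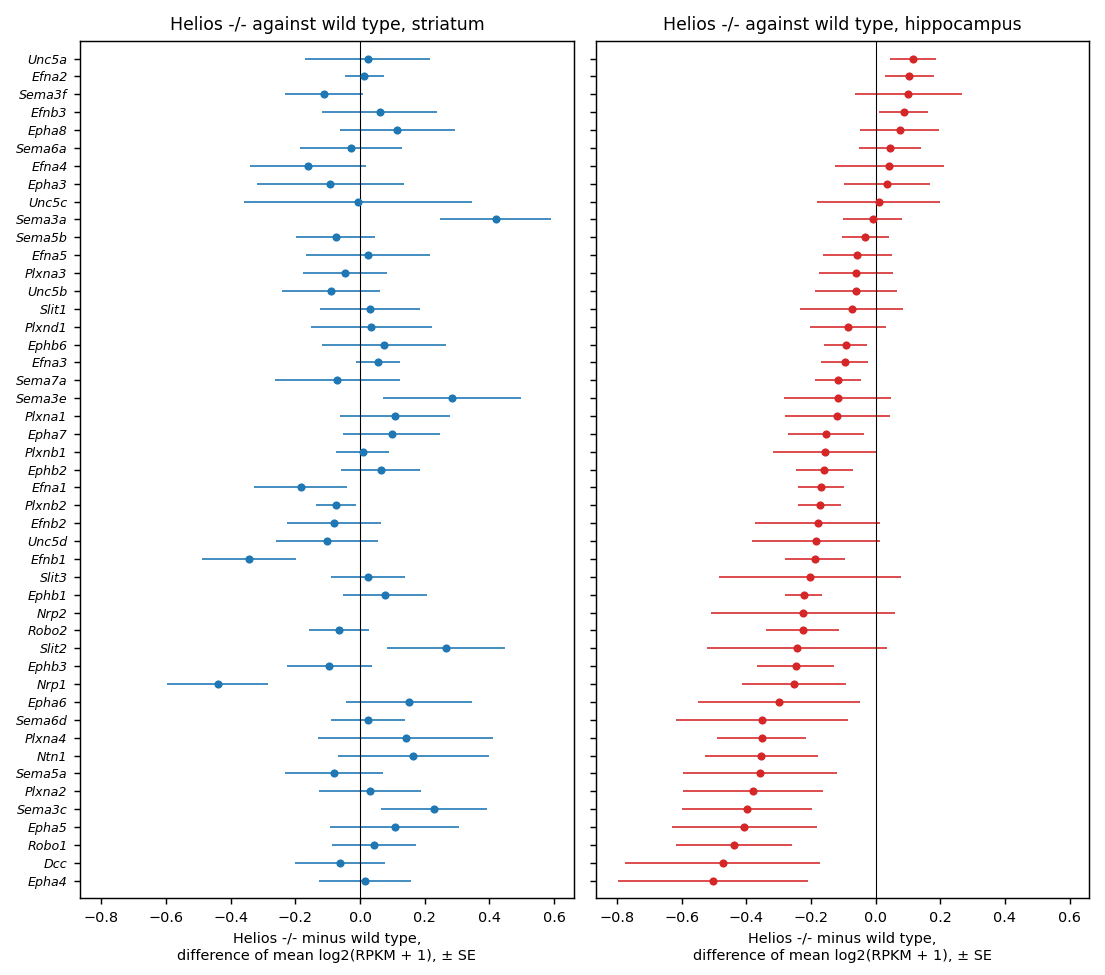
Difference in mean log2(RPKM + 1) between libraries labelled Helios -/- and wild type (5 each), with its standard error, in striatum (left) and hippocampus (right), for the members tested, ordered by the hippocampal difference. No point was called. In striatum the points lie between -0.44 and 0.42, and in hippocampus 38 of 47 lie below 0, down to -0.50 for Epha4.

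No member was called for the interaction of genotype and tissue, of 46 tested and beside 0% of 14520 genes. At an unadjusted limma p under 0.05 there was 1 member, Sema3c, against 3.37% of genes. The difference of its genotype effects, striatum minus hippocampus, was 0.63 ± 0.27 (SE), adjusted p = 0.790, and 0.44 without hippocampus Helios -/- 8. Its striatal difference was 0.23 ± 0.16 and its hippocampal one -0.40 ± 0.20 (SE). Of the other pathway genes, 0 of 62 were called between genotypes in either tissue. Those with the smallest p were Sema6c and Pak3 in striatum, with differences of -0.30 and 0.22, and Sema4a and Ephb4 in hippocampus, with 0.24 and -0.14.

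The authors' deposited tables give their own comparison by transcript, and 46 of the 48 members had a readable row in each tissue. In the authors' deposited table for striatum, the smallest adjusted p of a member was that of Nrp1, with a log2 fold change of -0.34 (SE 0.12, adjusted p = 0.556). Efnb1 had -0.26 (SE 0.12, adjusted p = 0.942) and Sema3a 0.22 (SE 0.13, adjusted p = 0.999) in the authors' deposited table. For hippocampus the smallest adjusted p of a member in the authors' deposited table was that of 1 transcript of Epha7, with a log2 fold change of 0.28 (SE 0.10, adjusted p = 0.867). The other readable transcript of Epha7 had -0.11 (SE 0.14, adjusted p = 0.871) in the authors' deposited table. For hippocampus the authors' deposited table gives Ephb1 as -0.27 (SE 0.16, adjusted p = 0.868) and Plxna4 as -0.20 (SE 0.13, adjusted p = 0.868). For Plxnb2 the authors' deposited table gives -0.10 (SE 0.14, adjusted p = 0.873) in hippocampus. All transcripts of Nrp2 and Unc5c were listed at 0 in both of the authors' deposited tables. Nrp2 was among them although its level in the hippocampal libraries was 27.3 to 92.2 RPKM.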

How the data were processed

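Per the labels' protocols, libraries came from a stranded TruSeq mRNA kit and gave single 75 bp reads on a NextSeq500. The submitters' processing notes list, for build mm10 and without roles, BWA 0.7.4, HTSeq, featureCounts, DESeq2 and cutadapt 1.3 among other tools. The authors deposited RPKM for 27179 genes in 20 libraries and 1 table per tissue of their own log2 fold changes by transcript. In these tables as used here, 51.1% of the RPKM values, all those of 1 or more, had no decimal mark. RPKM times library size is whole reads over gene length, so each mark was placed where 1 gene length gave whole reads in all libraries (100.0% within 0.001 of a whole read). Where several places did so, the place nearest the gene's level in the other libraries of its tissue was taken, so that restored values lean toward their tissue. Genes with an unsure mark or no scale, 1060 in striatum and 1141 in hippocampus, were left out of the fits of that tissue, Nrp2 among them in striatum. Only the authors' values whose marks were kept, and whose p followed from fold change and SE, were read.

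In limma 3.58.1 (trend and robust; R 4.3.3) log2(RPKM + 1) was fitted for genes with at least 0.5 RPKM in at least 5 libraries of the fit. Striatum and hippocampus were compared over all 20 libraries as the mean of both genotypes, the genotypes within each tissue, and the interaction over all. Calls were made at an adjusted p (Benjamini-Hochberg over all genes tested) below 0.05. Differences are on the log2(RPKM + 1) scale and understate changes of low genes. The fits and the restoring of marks were tested on simulated data. Groups and replicate numbers came from the titles, and values are listed in order of replicate number (1 to 5 and 6 to 10 in striatum, and 1, 2, 3, 4, 6 and 5, 7, 8, 9, 10 in hippocampus). Each of the 40 within-group pairs of libraries differed by more than counting noise, with a chi-square of at least 6.91 per degree of freedom, and no libraries were merged. Values rest on 14310069 to 34447093 recovered reads per library, and counting error weighs most in low values. RefSeq and GENCODE tables of GRCm38 (mm10) gave positions, and gave 25275 genes a symbol.

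The members and lists were chosen with earlier results of these data known. Genes given in every library are the called members with the 6 largest differences between tissues in each direction, the 3 with the smallest p between genotypes in each tissue, the 1 with the smallest p for the interaction, Epha4, and any member under the filter. Alternatives changed the pseudocount to 0.1, the filter, the scaling, the test (voom), the unsure marks, the labels of codes 7_1 and 7_6, a block for the replicate number, and left out each library.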

Additional observations from a re-analysis of the deposited data

Results flagged for a closer look

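In groups of 5, the gap of the highest or lowest library to its nearest neighbour was compared with the range of its group. The 68 groups examined were those of 17 members given in every library, without Robo3 and Nrp2. Chance flags about 1 in 20 groups, and 9 of the 68 stood apart. Of these, 4 were values of hippocampus Helios -/- 8, with Efna4 high at 23.9 RPKM and Robo2 low at 5.47 RPKM, Epha4 low at 30.4 RPKM and Plxna4 low at 8.55 RPKM. In striatum wild type 4, Nrp1 was high at 15.7 RPKM and Efnb1 high at 43.3 RPKM. The remaining values were Sema3c at 14.5 RPKM in striatum Helios -/- 9, Epha6 at 1.87 RPKM in striatum wild type 3 and Ephb1 at 53.2 RPKM in striatum Helios -/- 6, each the highest of its group. No member moved without overlap in opposite directions in striatum and hippocampus.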

How the results depend on the processing

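The count of 35 members called between tissues was 35 with a pseudocount of 0.1, with no filter, with equal medians and with voom, and 36 with unsure marks kept. Without 1 library it was 34 to 39, and without both hippocampus Helios -/- 8 and striatum wild type 4, an alternative added after the data were seen, it was 40. Of all genes, 6701 to 8727 were called without 1 library, against 7135. No filter took Epha4 out and brought Robo3 in. The same-numbered libraries of both tissues carry the same codes but are not stated to share an animal. The correlation of their deviations lay between -0.16 and 0.23, over 0.1 in 8 of 10 pairs, and whether they are pairs is not settled. The reported fits took the 20 libraries as independent. With the replicate number as a block, 35 members, 6922 genes and 41 other pathway genes were called between tissues. Within each genotype, over the 4 numbers shared, such a block called 29 members in wild type and 24 in Helios -/-. The share of all genes called in those fits was not computed, so these counts show nothing particular to the members. No paired analysis was possible between genotypes because their groups share no number.

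Members called between genotypes and for the interaction were 0 under every alternative run. Over all genes, 1 was called in striatum with unsure marks kept (Wdfy1), and 2 in hippocampus with the labels of codes 7_1 and 7_6 exchanged (Pth2r and Scarna9). For the 22 named results, 512 of 532 recomputed values kept direction and side of the threshold. The exceptions all concern Epha4. Between tissues it lost its call in 16 values, among them no filter (adjusted p = 0.065) and without codes 7_1 and 7_6 (-0.40), and was at -0.57 to -0.36 without 1 library. Between genotypes in striatum it was 0.02, turned to -0.076 without both codes and to -0.10 without the 2 libraries apart, and was at -0.10 to 0.084 without 1 library. The cause was not tested. Counting error weighs most in values under about 1 RPKM, such as those of Robo3.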

Other observations

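Among receptors and ligands outside the 48 members, several related to those with large tissue differences also differed between striatum and hippocampus. Neo1, a receptor of netrins and of repulsive guidance molecules that is related to Dcc, was at 26.1 to 46.5 RPKM in striatum and 38.7 to 92.4 RPKM in hippocampus, with a log2 difference of -1.08 ± 0.13 (SE, adjusted p = 8.14e-07, limma). Ephb4, a B receptor best known from blood vessels, was at 2.01 to 4.40 and 5.10 to 6.59 RPKM, with -0.96 ± 0.07 (SE, adjusted p = 1.36e-09). Sema4d, a membrane semaphorin that binds Plxnb1, was at 4.38 to 6.60 and 7.99 to 16.6 RPKM, with -1.09 ± 0.09 (SE, adjusted p = 1.17e-08). Inside the growth cone, Srgap1, a GTPase-activating protein that acts downstream of Robo receptors, was higher in striatum by 0.93 ± 0.13 (SE, adjusted p = 4.25e-06), at 26.4 to 43.7 against 8.64 to 22.3 RPKM. Pak1, a kinase that acts downstream of Rac and Cdc42, was higher in striatum by 0.61 ± 0.04 (SE, adjusted p = 4.01e-11), at 61.1 to 71.1 against 38.8 to 45.2 RPKM. These genes were picked out after their values were seen.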
